A study of Homo sapiens with 12 samples.

Results

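A set of 10 genes, those that hold back or switch on the kinase complex mTORC1 and the kinases SGK1 and SGK3, was followed through 12 RNA-seq libraries of the human cell lines PA-1 and SK-OV-3. The genes were DDIT4, SESN1, SESN2, SESN3, DEPTOR, TSC1, TSC2, RHEB, SGK1 and SGK3, taken by symbol, and all 10 were found among the 26475 gene symbols of the count data. They were picked with results of these data in view. The BAY-850 comparisons were taken to be the ones used, so the members' differences between BAY-850 and DMSO libraries are given as a description. No p is printed for them, and their calls are counted only beside the share of all genes called.

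PA-1 is an ovarian teratocarcinoma line and SK-OV-3 an ovarian adenocarcinoma line. Each line had 3 libraries from cells given the vehicle DMSO and 3 from cells given 5 µM BAY-850, an inhibitor of the ATAD2 bromodomain, for 48 h. The replicates are described as biological. Each group was 1 established line, and PA-1 was kept in DMEM and SK-OV-3 in RPMI, so a difference between the lines cannot be told apart from a difference between the media.

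mTORC1 is a protein kinase complex that drives protein and lipid synthesis when amino acids, energy and growth factors are plentiful. RHEB is the small GTPase that switches it on at the lysosome, and TSC1 with TSC2 switches RHEB off. DDIT4 (also called REDD1) acts through TSC2 under low oxygen or other stress, the sestrins SESN1, SESN2 and SESN3 bind GATOR2 and block amino acid signalling to mTORC1, and DEPTOR binds mTOR itself. SGK1 and SGK3 are relatives of AKT that are activated by mTORC2 and PDK1. SGK1 is known for fast control of its mRNA by serum, steroids and osmotic stress, and SGK3 for its place on endosomes.

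The promoter sequences of DDIT4, SESN2 and SGK1 are shown because these members did not overlap between BAY-850 and DMSO in SK-OV-3 and had a fitted difference of at least 1.5-fold, which SESN2 only just reached at 1.51-fold. They come from RefSeq on GRCh38.p14, read in the direction of transcription, and end at the last base before the annotated first exon or before the start itself. Capitals mark matches, on either strand, to ACGTG or GCGTG (cores bound by hypoxia-inducible factors) in DDIT4 and to GGGCGG (the core bound by SP1) in SESN2 and SGK1. The DDIT4 stretch is chr10:72273674-72273919 on the plus strand, the SESN2 stretch chr1:28259268-28259517 on the plus strand, and the SGK1 stretch chr6:134174897-134175116 on the minus strand.
DDIT4: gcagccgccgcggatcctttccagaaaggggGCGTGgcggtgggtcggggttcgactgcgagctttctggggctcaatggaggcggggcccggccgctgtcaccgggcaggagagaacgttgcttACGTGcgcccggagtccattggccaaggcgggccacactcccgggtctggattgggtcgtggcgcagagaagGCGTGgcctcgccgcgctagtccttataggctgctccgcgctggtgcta
SESN2: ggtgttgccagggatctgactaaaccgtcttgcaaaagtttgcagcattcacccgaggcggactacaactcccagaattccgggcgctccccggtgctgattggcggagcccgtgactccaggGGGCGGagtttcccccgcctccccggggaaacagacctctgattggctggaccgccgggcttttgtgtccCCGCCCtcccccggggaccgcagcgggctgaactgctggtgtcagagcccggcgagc
SGK1: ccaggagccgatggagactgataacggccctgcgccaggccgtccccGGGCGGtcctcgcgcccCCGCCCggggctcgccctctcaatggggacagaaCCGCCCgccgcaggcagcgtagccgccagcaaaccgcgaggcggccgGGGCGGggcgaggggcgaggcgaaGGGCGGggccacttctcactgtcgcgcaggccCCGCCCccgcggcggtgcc

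The DDIT4 window held 1 ACGTG, 125 bases before the start, and 2 GCGTG, 219 and 53 bases before it. At least 3 such cores stood in 7.73% of the 34943 RefSeq windows of the same length, 250 bases, while ACGTG alone stood in 18.5% and GCGTG in 32.2%. The SESN2 window held 2 GGGCGG and the third of the 3 SGK1 windows held 6, a motif found in 42.5% of all windows. In all, 10 motifs were searched on both strands in the 13 windows of 8 members, the others being TGATGNAA (3.15% of all windows), CACGTG (6.32%), GTAAACA (2.98%), TGACGTCA (1.63%), TGANTCA (6.59%), AGAACA (12.4%) and the CArG box (1.16%). The first SGK1 window held 1 ACGTG and the second 1 GCGTG. None of the 7 others matched in the windows of DDIT4, SESN2 or SGK1, which says only that these letters are not in those windows. Among the other members, SESN1 held 7, 5 and 1 GGGCGG in its 3 windows, and SESN3 held no match to any motif. The first TSC2 window held CACGTG 114 bases before the start, which overlaps 2 ACGTG, and TGATGNAA 110 bases before it. RHEB held 1 ACGTG, 81 bases before its start. DEPTOR and SGK3 were not searched. A match is a stretch of letters and no evidence of binding.

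On GRCh38 in GENCODE 29, DDIT4 (ENSG00000168209.4) lies on chromosome 10 from 72273920 to 72276036 on the plus strand, and SGK1 (ENSG00000118515.11) on chromosome 6 from 134169246 to 134318112 on the minus strand. SESN1 shares chromosome 6, from 108986437 to 109094819. SESN2 lies on chromosome 1 from 28259527 to 28282491 and SESN3 on chromosome 11 from 95165513 to 95232541. TSC1 lies on chromosome 9 from 132891348 to 132946874, TSC2 on chromosome 16 from 2047465 to 2089487, and RHEB on chromosome 7 from 151466012 to 151520120. DEPTOR and SGK3 are both on chromosome 8, DEPTOR from 119873717 to 120050913.

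Library totals ran from 34544505 to 51840233 counts. Between 17425 and 18414 symbols had a count, apart from the library SK-OV-3 BAY-850 3 with 15629, and genes for ribosomal RNA took 7.94% to 16.9% of a library. Pairs of replicates differed by more than sampling noise, with 1 chi-square value per degree of freedom for each pair, from 5.05 to 72.7. The lowest value was for SK-OV-3 BAY-850 1 and 2, with ribosomal RNA shares of 10.7% and 10.6%. The highest was for SK-OV-3 DMSO 1 and 2, of which DMSO 2 had the lowest share of all libraries, 7.94%. The part of ribosomal RNA genes in these values was not tested, so they do not give the spread of single genes. Of the stem cell markers, LIN28A ran from 705 to 859 CPM (counts scaled to a common library total with TMM factors) in PA-1 and was at most 0.332 in SK-OV-3, while DPPA4 was at 0.976 to 2.43 CPM in PA-1 and at 0 in SK-OV-3. Of 5 epithelial markers, KRT7, KRT19 and ERBB2 were far higher in SK-OV-3, KRT7 at 375 to 477 CPM against at most 0.170 in PA-1. The keratins KRT8 and KRT18 did not mark SK-OV-3, with medians of 564 and 344 CPM in PA-1 and 507 and 251 CPM in SK-OV-3. Of the genes of other cells, PTPRC, CD3E and HBB were at most 0.222 CPM, and the endothelial gene PECAM1 was at 22.9 to 26.2 CPM in PA-1 and 2.51 to 3.75 CPM in SK-OV-3. The summed level of 5 epithelial markers lay between 4078 and 4389 CPM in untreated SK-OV-3 and between 2868 and 3332 CPM in treated SK-OV-3. ERBB2, the largest part of this sum, ran from 1541 to 2622 CPM over the SK-OV-3 libraries, and KRT8 and KRT18 are also in it. In PA-1 the sum lay between 922 and 979 CPM untreated and between 1005 and 1053 CPM treated. The part of this sum in the SK-OV-3 values below was not tested. In RNA from a whole culture, a change in the mix of cells and a change in RNA per cell cannot be told apart.

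**Figure D1:**
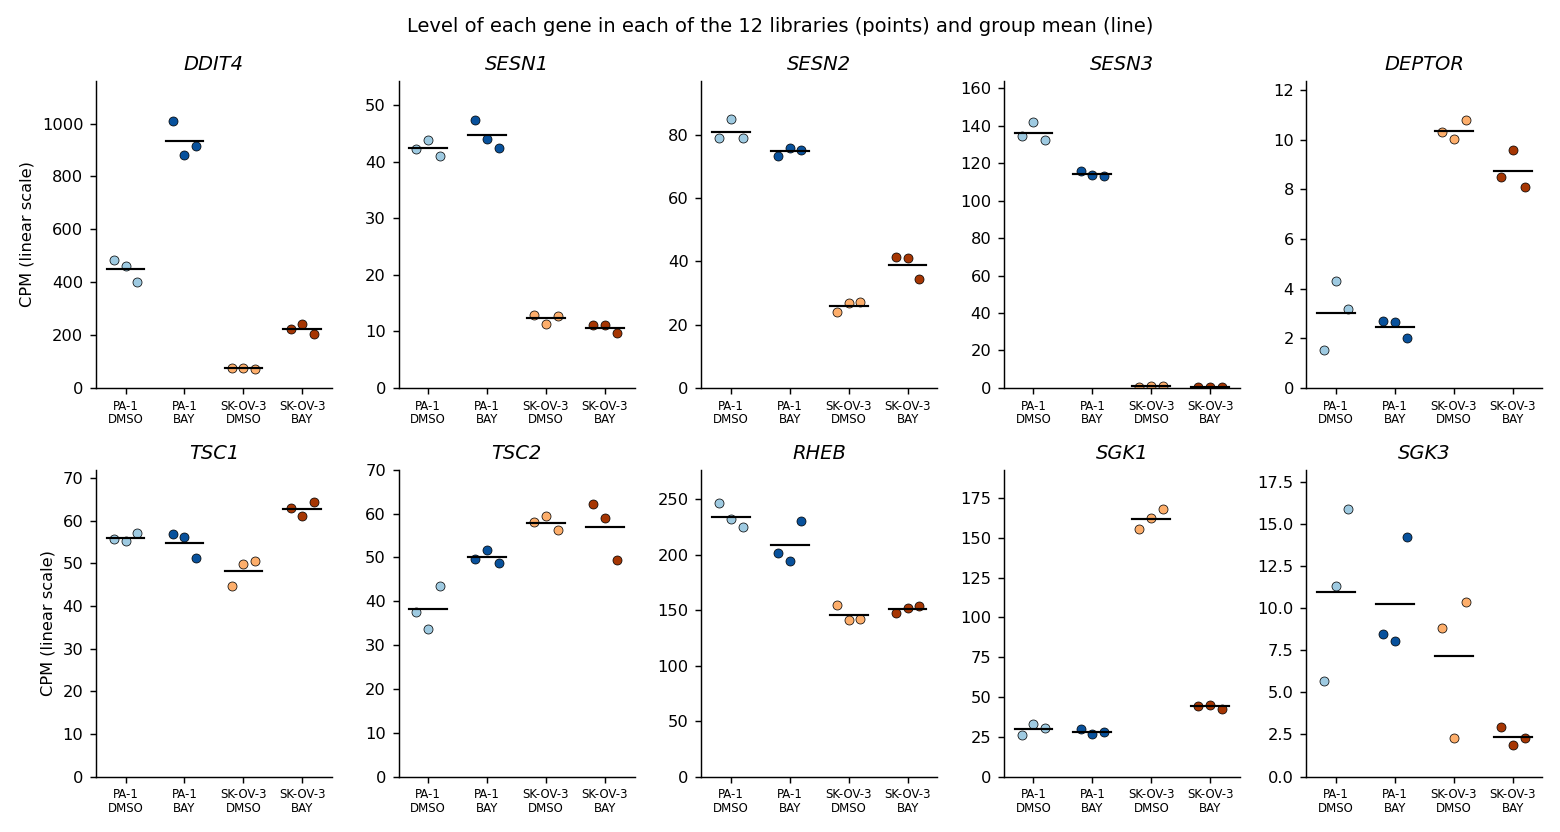
Level of each of the 10 genes in CPM (y axis, linear, from 0, a scale of its own for each gene) in the 4 groups (x axis), with a point for each library and a line at the mean of 3. DDIT4 sits higher with BAY-850 in both lines, SGK1 sits lower with BAY-850 in SK-OV-3 and level in PA-1, SESN3 is near 0 in SK-OV-3, and the points of SGK3 scatter widely within groups.

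DDIT4 stood higher with BAY-850 in both lines, and its level per kb of exon was the highest of the 10 in each group but SK-OV-3 with DMSO, where RHEB was higher. In PA-1 it was at 484, 461 and 401 CPM with DMSO and at 1008, 883 and 913 CPM with BAY-850. In SK-OV-3 it was at 75.0, 73.9 and 71.7 CPM with DMSO and at 222, 242 and 205 CPM with BAY-850. The 4 groups did not overlap, in the order PA-1 BAY-850, PA-1 DMSO, SK-OV-3 BAY-850 and SK-OV-3 DMSO, so treated SK-OV-3 cells did not reach the level of untreated PA-1 cells. The log2 difference, BAY-850 minus DMSO, was 1.06 ± 0.0704 (SE) in PA-1 and 1.61 ± 0.0619 in SK-OV-3. The ratio of the PA-1 to the SK-OV-3 mean was 6.10 under DMSO and 4.19 under BAY-850. Per kb of exon, DDIT4 was above 98.9% of expressed genes in PA-1 with DMSO and above 90.9% in SK-OV-3 with DMSO.

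SGK1 gave the largest difference of the 10 in SK-OV-3 and none of size in PA-1. In SK-OV-3 it was at 156, 162 and 168 CPM with DMSO and at 44.6, 45.1 and 42.4 CPM with BAY-850, a log2 difference of -1.87 ± 0.0563, or 0.274 times the DMSO level. In PA-1 it was at 26.0, 32.7 and 30.2 CPM with DMSO and at 29.8, 26.8 and 28.2 CPM with BAY-850, where the groups overlapped and the log2 difference was -0.07 ± 0.0872. The SK-OV-3 mean was 5.46 times the PA-1 mean under DMSO and 1.56 times under BAY-850, with no overlap between the lines in either case. The SK-OV-3 response minus the PA-1 response was -1.81 ± 0.108 on the log2 scale.

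SESN2, a sestrin known to bind leucine, lay on opposite sides of its DMSO level in the lines. It was at 24.0, 26.7 and 27.2 CPM in SK-OV-3 with DMSO and at 41.3, 41.0 and 34.5 CPM with BAY-850, a log2 difference of 0.59 ± 0.0885. In PA-1 it was at 79.1, 85.1 and 78.9 CPM with DMSO and at 73.5, 75.8 and 75.4 CPM with BAY-850, a log2 difference of -0.11 ± 0.0584. Each library with BAY-850 lay above all DMSO libraries in SK-OV-3 and below all of them in PA-1, and the PA-1 difference was the smaller. Such separation upward held for 18.1% of all genes in SK-OV-3, and downward for 13.3% in PA-1. By the rule for a call used below, SESN2 was not called in PA-1, also not in any of 17 alternatives.

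SESN3, a target of FOXO factors, was a gene of PA-1. It was at 134, 142 and 132 CPM in PA-1 with DMSO and at 116, 114 and 113 CPM with BAY-850, a log2 difference of -0.25 ± 0.0552, and the groups did not overlap. In SK-OV-3 it had 24, 35 and 29 counts with DMSO and 29, 19 and 20 with BAY-850, which is 0.372 to 0.926 CPM. The SK-OV-3 groups overlapped, and the log2 difference of -0.56 had an SE of 0.579 on these few counts.

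SESN1, known as a p53 target, showed no step of the size seen in SESN2. It was at 42.2, 43.7 and 41.1 CPM in PA-1 with DMSO and at 47.4, 44.1 and 42.3 CPM with BAY-850, which overlap. In SK-OV-3 it was at 12.9, 11.2 and 12.8 CPM with DMSO and at 11.1, 11.1 and 9.68 CPM with BAY-850, without overlap, and the log2 difference was -0.20 ± 0.119.

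Per kb of exon, the scale on which genes can be set side by side, the sestrins differed in their shares between the lines. SESN2 made 49.4% ± 0.367 (SD, n = 3) of the sestrin level in PA-1 with DMSO and 70.2% ± 2.46 in SK-OV-3 with DMSO. SESN3 made 28.0% ± 0.0961 in PA-1 and 0.693% ± 0.140 in SK-OV-3, and SESN1 22.6% ± 0.275 and 29.1% ± 2.60. With BAY-850 the SESN2 share was 80.4% ± 0.321 in SK-OV-3 and 49.1% ± 1.25 in PA-1. The sum of the sestrins was 47.5 ± 1.84 CPM per kb in PA-1 and 10.7 ± 0.452 in SK-OV-3 with DMSO, and 44.1 ± 0.488 and 14.01 ± 1.33 with BAY-850. With the length of the principal transcript in place of all exons, the SESN2 shares under DMSO were 47.1% in PA-1 and 67.7% in SK-OV-3.

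**Figure D2:**
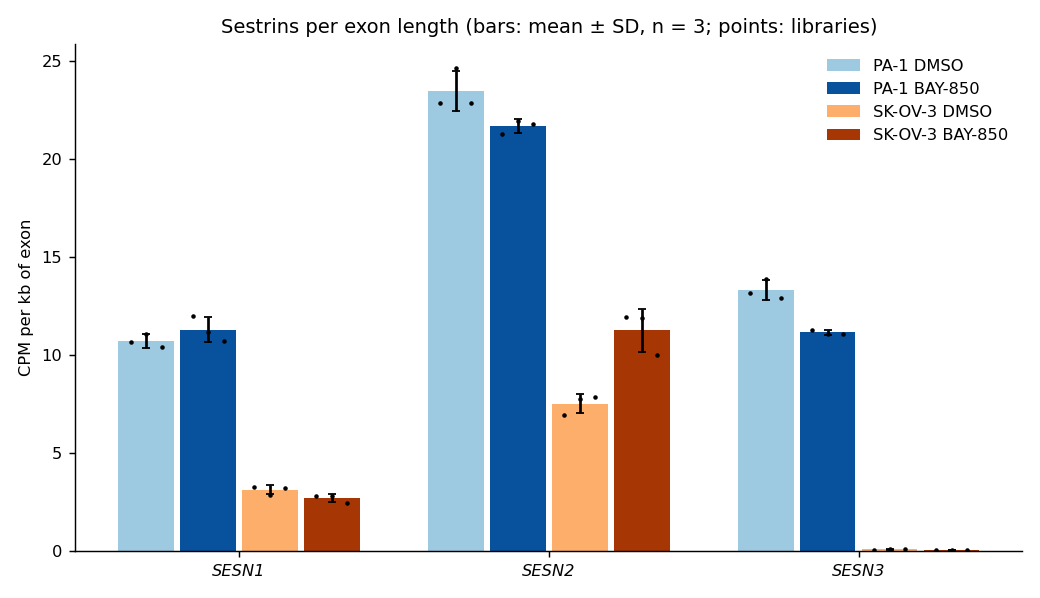
Sestrin levels in CPM per kb of exon (y axis, from 0) for SESN1, SESN2 and SESN3 in the 4 groups, as bars for the mean with the SD over 3 libraries and points for the libraries. All 3 sestrins stand in PA-1, SESN2 and SESN1 stand in SK-OV-3 at lower levels, and SESN3 in SK-OV-3 is at 0.0743 with DMSO and 0.0501 with BAY-850.

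The subunits of the TSC complex separated in different lines, TSC1 in SK-OV-3 and TSC2 in PA-1. TSC1 was at 44.7, 49.8 and 50.5 CPM in SK-OV-3 with DMSO and at 62.9, 61.2 and 64.4 CPM with BAY-850, a log2 difference of 0.39 ± 0.0698 without overlap. In PA-1, TSC1 was at 55.7, 55.2 and 57.1 CPM with DMSO and at 56.9, 56.2 and 51.3 CPM with BAY-850, which overlap. TSC2, the subunit that acts on RHEB, was at 37.5, 33.7 and 43.5 CPM in PA-1 with DMSO and at 49.6, 51.6 and 48.7 CPM with BAY-850, a log2 difference of 0.39 ± 0.0829 without overlap. In SK-OV-3, TSC2 was at 58.0, 59.5 and 56.2 CPM with DMSO and at 62.2, 58.9 and 49.5 CPM with BAY-850, which overlap. The TSC2 call in PA-1 was lost without PA-1 DMSO 1, DMSO 2 or BAY-850 2, at 0.38, 0.31 and 0.37. It was also lost when scaled by library size alone, at 0.35. The SESN3 call in PA-1 was lost without DMSO 2 or BAY-850 2, at -0.22 and -0.25. It was also lost in 1 fit of all 12 libraries, at -0.26, and with the trend on GC content removed, at -0.14.

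RHEB and DEPTOR overlapped or stayed close in each line. RHEB was at 246, 232 and 225 CPM in PA-1 with DMSO and at 202, 195 and 230.2 CPM with BAY-850, a log2 difference of -0.16 ± 0.0672. In SK-OV-3 it was at 155, 141 and 142 CPM with DMSO and at 148, 152 and 154 CPM with BAY-850. DEPTOR was at 10.3, 10.0 and 10.8 CPM in SK-OV-3 with DMSO and at 8.51, 9.57 and 8.10 CPM with BAY-850, without overlap, at a log2 difference of -0.24 ± 0.126. In PA-1 it was at 1.53, 4.32 and 3.20 CPM with DMSO, a wide scatter for its level, and at 2.69, 2.67 and 2.03 CPM with BAY-850.

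SGK3 shares its reads with another symbol. The read-through transcript C8orf44-SGK3 spans chr8:66667596-66862022 in RefSeq and contains the whole of SGK3 (chr8:66712781-66862022), so a read of SGK3 can fit both, and RSEM divides such reads by estimate. The share of their sum that went to the read-through symbol was 58.7%, 25.1% and 3.95% in PA-1 with DMSO and 32.2%, 32.3% and 2.17% with BAY-850. In SK-OV-3 it was 14.4%, 80.5% and 0% with DMSO and 68.9%, 71.8% and 74.6% with BAY-850.

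Under its own symbol, SGK3 was at 8.83, 2.30 and 10.4 CPM in SK-OV-3 with DMSO and at 2.95, 1.85 and 2.27 CPM with BAY-850. The library SK-OV-3 DMSO 2, in which the read-through symbol held most of the counts, lay among the BAY-850 libraries. The log2 difference was -1.59 ± 0.437. In PA-1, SGK3 was at 5.67, 11.3 and 15.8 CPM under DMSO and at 8.44, 8.05 and 14.2 CPM under BAY-850, which overlap. The sum of both symbols averaged 10.8 ± 0.843 CPM (SD, n = 3) under DMSO and 8.33 ± 1.56 CPM under BAY-850, which is a log2 difference of -0.36 ± 0.161. In PA-1 the sum averaged 15.1 ± 1.38 CPM under DMSO and 13.0 ± 1.39 CPM under BAY-850. In SK-OV-3 the sum differed less than SGK3 alone, and it did not pass the rule for a call used below. The call of SGK3 alone was also lost without SK-OV-3 DMSO 1, DMSO 3 or BAY-850 2, and with limma-voom, at -1.37.

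**Figure D3:**
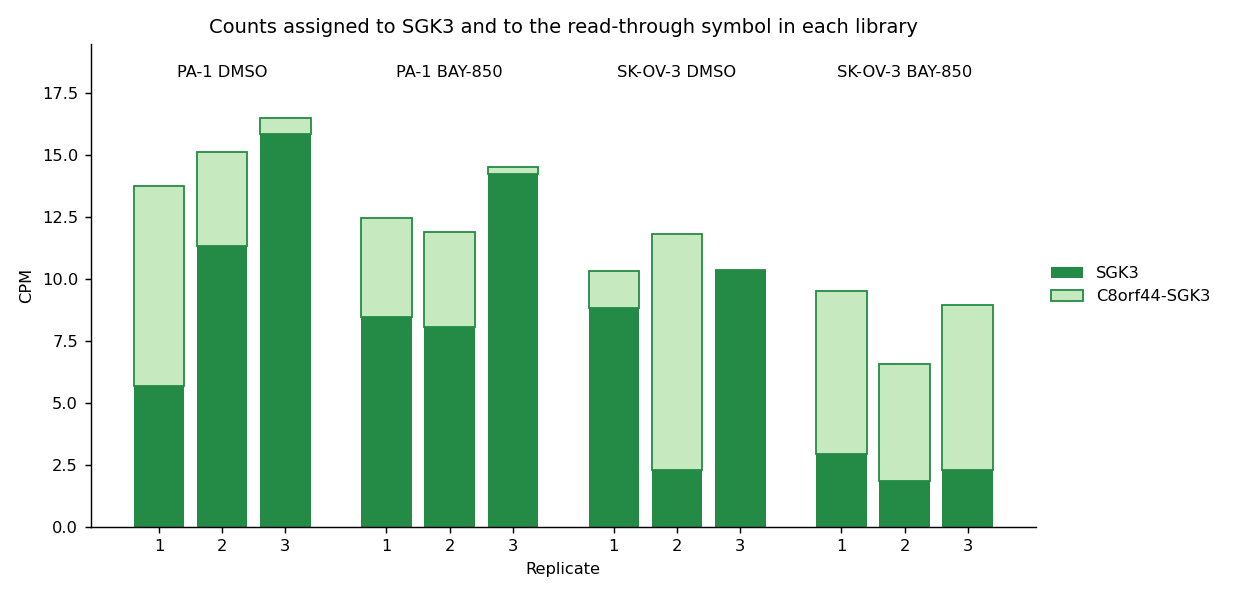
CPM assigned to SGK3 (dark) and to the read-through symbol C8orf44-SGK3 (light), stacked, in each of the 12 libraries (x axis, replicate within group). The height of the stack is similar within a group, while the dark part runs from 2.30 to 10.4 CPM among the SK-OV-3 DMSO libraries alone.

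Counted by the rule used for all genes, an adjusted p under 0.05 in edgeR's quasi-likelihood test, 3 of the 10 members were called in PA-1, where 7.13% of 15212 genes were called. They were DDIT4 and TSC2, higher as were 4.65% of all genes, and SESN3, lower as were 2.48%. In SK-OV-3, 5 of 10 were called, where 20.4% of 15348 genes were called. They were DDIT4, SESN2 and TSC1, higher as were 10.8% of all genes, and SGK1 and SGK3, lower as were 9.56%. With a difference of at least 1.5-fold besides, DDIT4 remained in PA-1 (1.05% of all genes), and DDIT4, SESN2, SGK1 and SGK3 in SK-OV-3 (5.8%).

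Replicates did not overlap for 4 of 10 members in PA-1, beside 27.5% of all genes, 2 of them higher (14.1%) and 2 lower (13.3%). In SK-OV-3 they did not overlap for 6 of 10, beside 38.6%, 3 of them higher (18.1%) and 3 lower (20.5%). In the fit of all libraries, the line by treatment interaction, the difference between the lines' responses, called 5 of 10 members, beside 14.5% of 16830 genes. DDIT4, SESN2 and TSC1 had the higher response in SK-OV-3 (6.7% of all genes), SGK1 and TSC2 the lower (7.77%), and SESN2 and SGK1 passed at 1.5-fold or more (6.1%). The call of TSC2 was kept in only 9 of 22 alternatives, and those of DDIT4, SESN2, TSC1 and SGK1 in all 22. The members were taken to be picked from these comparisons, so nothing is read from the counts. Without SK-OV-3 BAY-850 3, the library with the fewest symbols, the log2 differences in SK-OV-3 were 1.66 for DDIT4, 0.66 for SESN2, 0.36 for TSC1, -1.85 for SGK1 and -1.58 for SGK3. In order of p, the last member called in PA-1 was SESN3 at -0.25, and the next, not called, was RHEB at -0.16. In SK-OV-3 the last called was SGK3 at -1.59, and the next, not called, was DEPTOR at -0.24. With all libraries kept, neither RHEB nor DEPTOR was near the threshold. Without PA-1 BAY-850 3, RHEB was called in PA-1, at -0.24.

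**Figure D4:**
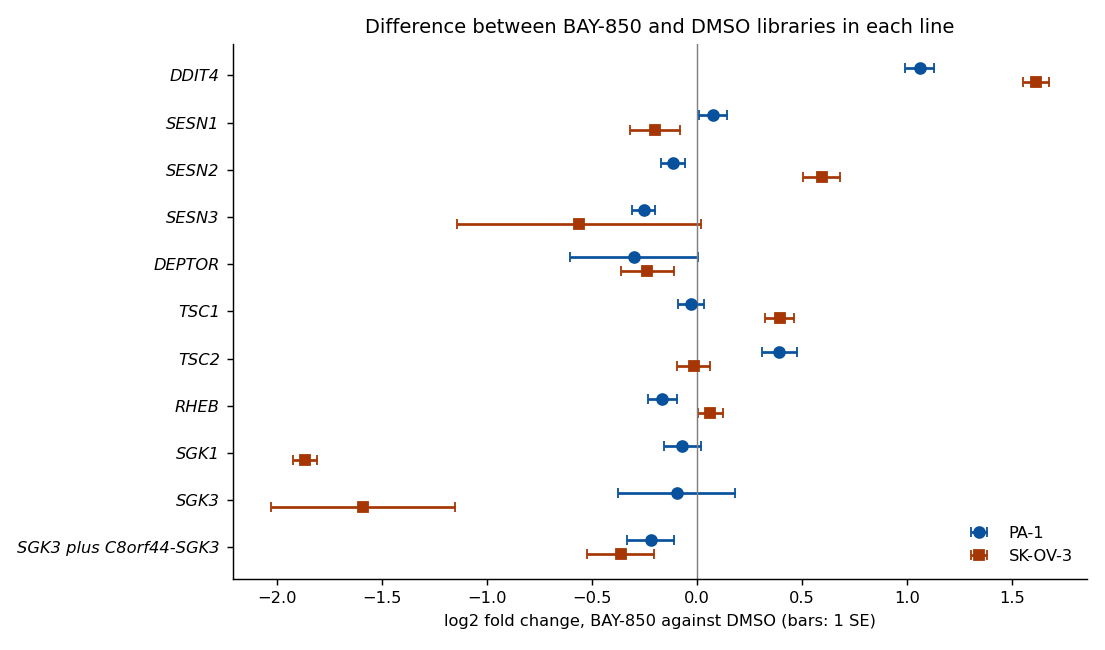
Log2 fold change, BAY-850 against DMSO, of each member and of SGK3 summed with its read-through symbol (y axis) in PA-1 (circles) and SK-OV-3 (squares), with bars of 1 SE. DDIT4 lies right of 0 in both lines, SGK1 lies at -1.87 in SK-OV-3 and near 0 in PA-1, SESN2 lies on opposite sides of 0, and the summed SGK3 lies closer to 0 than SGK3 alone in SK-OV-3.

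Untreated, the lines differed in most members, as they did in 80.3% of all genes. PA-1 had more DDIT4, RHEB and TSC1 and more of all 3 sestrins, and SK-OV-3 had more SGK1, DEPTOR and TSC2. Whether this comparison also played a part in the choice of the members is not known. It uses the DMSO libraries, which also serve as controls above, and its p-values measure the spread of 3 cultures of each line in its own medium. PA-1 minus SK-OV-3 on the log2 scale, SESN3 differed by 7.49 ± 0.108 (adjusted p = 1.53e-14), DDIT4 by 2.61 ± 0.0720 (adjusted p = 3.53e-12), SESN1 by 1.78 ± 0.0848 (adjusted p = 6.58e-10) and SESN2 by 1.65 ± 0.0706 (adjusted p = 2.42e-10). RHEB was higher in PA-1 by 0.69 ± 0.0593 (adjusted p = 2.45e-07) and TSC1 by 0.22 ± 0.0662 (adjusted p = 0.00898). SGK1 differed by -2.44 ± 0.0800 (adjusted p = 1.76e-11), DEPTOR by -1.76 ± 0.274 (adjusted p = 6.22e-05) and TSC2 by -0.60 ± 0.0864 (adjusted p = 3.18e-05).

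SGK3 did not pass under its own symbol, at 0.61 ± 0.437 (adjusted p = 0.213), and passed as the sum of both symbols, at 0.48 ± 0.119 (adjusted p = 0.00228). In all, 9 of 10 members differed between the lines, beside 80.3% of 16070 genes, a share near the background. Of these, 6 were higher in PA-1 (40.2% of all genes) and 3 lower (40.1%), and 8 differed by at least 1.5-fold (60%). The replicates of the lines did not overlap for the same 9, beside 82.3% of all genes, 6 higher in PA-1 (41.2%) and 3 lower (41.1%). Scaled by library size alone, TSC1 lost its call at 0.17 (adjusted p = 0.0963). SESN3 was 179 times higher in PA-1 by group means, from 24 to 35 counts in the SK-OV-3 libraries.

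Per kb of exon under DMSO, DDIT4 at 257 ± 24.6 and RHEB at 96.8 ± 4.47 CPM per kb led the members in PA-1. In SK-OV-3 the order was RHEB at 60.3 ± 3.22, DDIT4 at 42.1 ± 0.961 and SGK1 at 25.5 ± 0.979 CPM per kb. SGK1 in PA-1 was at 4.68 ± 0.534 CPM per kb. These lengths count all exons of coding transcripts, 6342 bases for SGK1, and with its principal transcript of 2401 bases the SGK1 level was 67.5 in SK-OV-3 and 12.4 in PA-1, which puts SGK1 above DDIT4 in SK-OV-3. TSC1 at 5.49 ± 0.0969 and TSC2 at 5.39 ± 0.697 CPM per kb stood close in PA-1, and at 4.73 ± 0.310 and 8.17 ± 0.236 in SK-OV-3.

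Each member has relatives outside the list, of which 3 were followed. DDIT4L, the paralog of DDIT4 that also restrains mTORC1, rose in PA-1 from 20.7 ± 0.837 to 35.8 ± 1.09 CPM (SD, n = 3), a log2 difference of 0.79 ± 0.0720 (adjusted p = 6.88e-06). In SK-OV-3 it fell from 9.80 ± 0.364 to 6.504 ± 1.21 CPM, a log2 difference of -0.58 ± 0.158 (adjusted p = 0.0232), unlike DDIT4, which stood higher in both lines. The difference between the DDIT4L responses was -1.39 (adjusted p = 5.65e-05 for the interaction). SGK2 was at 11.2 ± 1.08 CPM in SK-OV-3 with DMSO and fell to 5.02 ± 0.921 CPM, a log2 difference of -1.15 ± 0.165 (adjusted p = 0.000579). In PA-1 it was at most 1.175 CPM in any library. RHEBL1, a relative of RHEB, rose in SK-OV-3 from 0.938 ± 0.412 to 2.46 ± 0.410 CPM (log2 1.40 ± 0.396, adjusted p = 0.0278). In SK-OV-3 the DDIT4L call was lost without any 1 of DMSO 1, DMSO 2, DMSO 3 and BAY-850 1, at -0.61 to -0.56, and the RHEBL1 call without any 1 of DMSO 1, DMSO 2, BAY-850 1 and BAY-850 2, at 1.17 or more.

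Per kb of exon, SGK1 made 80.6% ± 0.363 of the SGK family level in SK-OV-3 with DMSO and 66.9% ± 1.45 with BAY-850, counting SGK3 with its read-through symbol. In PA-1 its share was 59.4% ± 1.41 with DMSO and 61.3% ± 2.34 with BAY-850. The family sum was 31.7 ± 1.36 CPM per kb in SK-OV-3 with DMSO and 10.4 ± 0.461 with BAY-850, and 7.88 ± 0.859 and 7.27 ± 0.399 in PA-1. These values depend on the length used. With principal transcripts in place of all exons, the SGK1 share in SK-OV-3 was 88.9% with DMSO and 79.9% with BAY-850. In PA-1 the SGK1 share was then 75.4% and 76.8%. The family sums became 75.9 and 23.0 CPM per kb in SK-OV-3, and 16.4 and 15.3 in PA-1.

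The other genes of the pathway were taken from 8 lists of 89 genes, none of them members, and chosen with earlier results of these data known. All 89 were tested. Because of that choice, the counts of the lists beside the share of all genes, here and below, are a description and no independent test. In PA-1, 10 rose and 0 fell (11.2% called, beside 7.13% of all genes), with 22 and 6 at an unadjusted p under 0.05 in edgeR, and 17 rising and 0 falling in DESeq2 and 11 and 0 in limma-voom. In SK-OV-3, 28 rose and 8 fell (40.4% called, beside 20.4%). The median log2 difference of the 89 was 0.01 in PA-1 and 0.08 in SK-OV-3, and that of all genes tested was 0.00 and -0.01. Scaled by library size alone, the PA-1 count was 3. Between the untreated lines, 78 of the 89 differed, 37 higher in PA-1 and 41 lower, 87.6% beside 80.3% of all genes.

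The Rag GTPases, which carry mTORC1 to the lysosome, and their partners gave the largest count in SK-OV-3, 10 of 16 rising, at a median of 0.32. That is 62.5% of the list, beside 10.8% of all genes higher, a description since the lists were chosen with earlier results known. RRAGC rose from 64.8 ± 3.24 to 97.5 ± 3.39 CPM (log2 0.60 ± 0.0648, adjusted p = 7.60e-05) and RRAGD from 19.4 ± 0.974 to 30.4 ± 0.813 CPM (log2 0.66 ± 0.0826, adjusted p = 0.000238). FLCN, the folliculin that acts on RRAGC and RRAGD, rose from 23.8 ± 1.60 to 36.4 ± 4.13 CPM (log2 0.62 ± 0.0950, adjusted p = 0.000877). GATSL3, the arginine sensor CASTOR1, rose from 3.51 ± 1.24 to 7.22 ± 1.73 CPM (log2 1.05 ± 0.265, adjusted p = 0.0165), a call lost without SK-OV-3 DMSO 2, DMSO 3 or BAY-850 1. The other 6 were FNIP1, FNIP2, RRAGA, LAMTOR3, LAMTOR5 and C7orf60, the sensor SAMTOR, named because they complete the count. In this list 0 genes fell in SK-OV-3 by edgeR, DESeq2 or limma-voom, and 1 was lower at an unadjusted p under 0.05 in edgeR. In PA-1, 1 of 16 rose (6.25%, beside 4.65% of all genes), RRAGD at 0.38 ± 0.0867 (adjusted p = 0.0175).

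The SGK substrates and partners rose in 5 of 10 cases in SK-OV-3, beside 10.8% of all genes, at a median of 0.42. By the same 3 tools 0 fell, with 1 lower at an unadjusted p under 0.05 in edgeR. NDRG1, whose protein SGK1 phosphorylates, rose from 207 ± 5.93 to 359.8 ± 21.5 CPM in SK-OV-3 (log2 0.81 ± 0.0517, adjusted p = 1.33e-06) and from 268 ± 12.1 to 493 ± 17.3 CPM in PA-1 (log2 0.88 ± 0.0548, adjusted p = 9.81e-08). TSC22D3, which encodes a partner of SGK1 and is known as a glucocorticoid-induced gene, rose from 24.8 ± 0.324 to 39.7 ± 1.16 CPM in SK-OV-3 (log2 0.69 ± 0.0741, adjusted p = 7.26e-05). NEDD4L, FOXO1 and FOXO3 were the other 3, at 0.50, 0.43 and 0.40. Substrates of the kinase are phosphorylated proteins, and their mRNA levels do not measure SGK1 activity. In PA-1, NDRG1 was the 1 gene of this list called by edgeR, limma-voom also called 1 higher, and DESeq2 called 4 of 9 higher.

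The subunits of mTORC1 and mTORC2 gave 2 of 8 falling in SK-OV-3, with 0 rising by edgeR also at an unadjusted p under 0.05, and by DESeq2 and limma-voom. That is 25% of the list called, near the 20.4% of all genes (9.56% lower). MTOR, the kinase itself, fell from 68.2 ± 4.86 to 54.2 ± 2.23 CPM (log2 -0.32 ± 0.0683, adjusted p = 0.00706), and the other was MAPKAP1. In PA-1, MTOR rose from 69.9 ± 3.15 to 81.8 ± 3.60 CPM (log2 0.23 ± 0.0612, adjusted p = 0.0377), a call kept in 8 of 17 alternatives, and PRR5L was the other of the 2 that rose. The MTOR responses differed by -0.56 (adjusted p = 0.000913 for the interaction).

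The remaining lists were mixed. Their counts stand beside 20.4% of all genes called in SK-OV-3 (10.8% higher, 9.56% lower) and 7.13% in PA-1 (4.65% higher, 2.48% lower). Of the insulin receptor, PI3K and AKT genes, 3 of 14 rose and 2 fell in SK-OV-3, and PIK3R3, a regulatory subunit of PI3K, gave the largest step, from 9.51 ± 0.611 to 5.40 ± 1.24 CPM (log2 -0.81 ± 0.179, adjusted p = 0.00844). Of the GATOR and KICSTOR subunits, 2 of 12 rose and 1 fell in SK-OV-3, the latter KPTN from a mean of 9.88 to 6.36 CPM (log2 -0.62 ± 0.157, adjusted p = 0.0157), a call lost without SK-OV-3 DMSO 1, DMSO 2 or BAY-850 2. Of the mTORC1 substrates and outputs, 5 of 16 rose and 1 fell in SK-OV-3, and 2 of 16 rose in PA-1. Of the LKB1 and AMPK genes with the third TSC subunit, 2 of 10 rose in SK-OV-3. The share called in this list, 20%, was at the background, and that of the GATOR and KICSTOR subunits, 25%, was near it. In PA-1, 0 of these 10 were called by edgeR or limma-voom and 1 rose by DESeq2, with 1 higher and 2 lower at an unadjusted p under 0.05 in edgeR. In PA-1, 1 of 12 GATOR and KICSTOR genes and 2 of 14 insulin pathway genes rose.

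**Figure D5:**
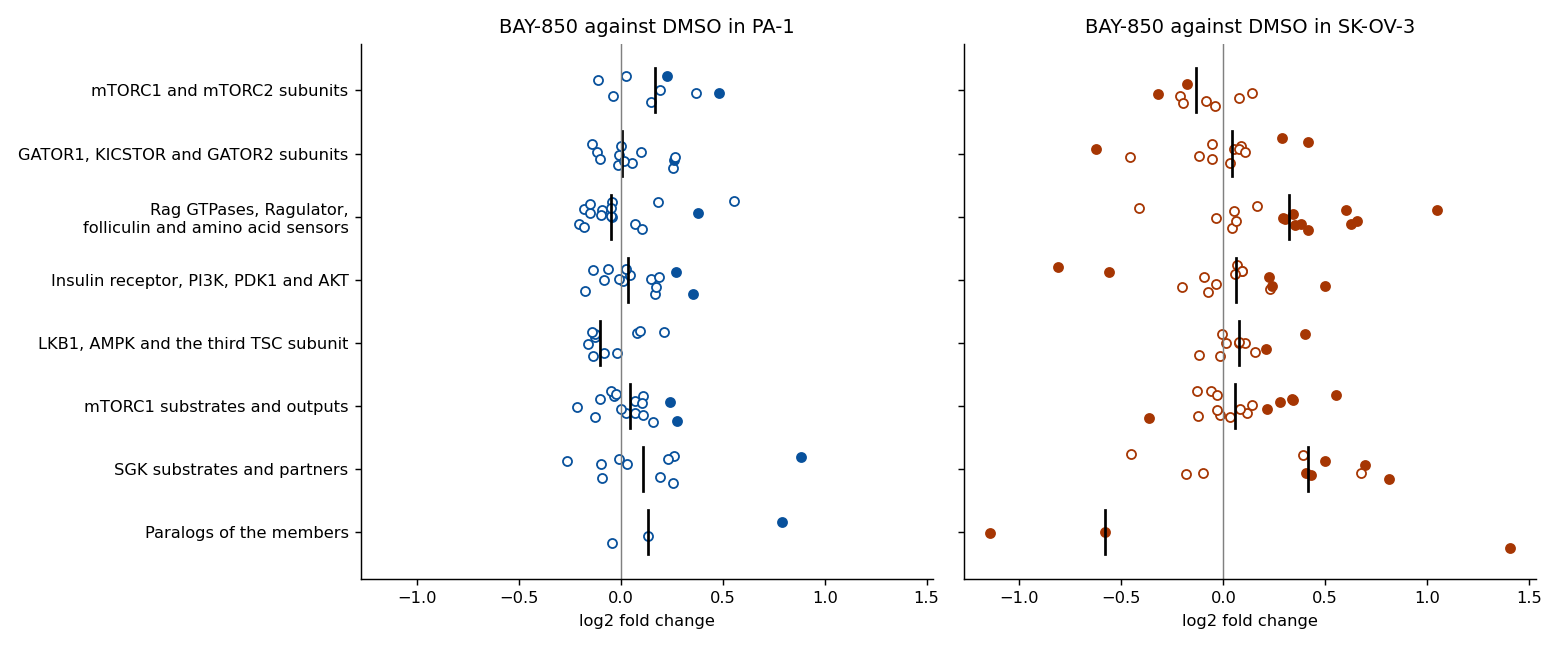
Log2 fold change, BAY-850 against DMSO (x axis), of each gene of the 8 lists (y axis, 1 point a gene, spread vertically for sight) in PA-1 (left) and SK-OV-3 (right), filled where the adjusted p is under 0.05 and with a black line at the list's median. The list of Rag GTPases and their partners and that of SGK substrates have medians of 0.32 and 0.42 in SK-OV-3, and -0.05 and 0.11 in PA-1.

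The genes whose level followed DDIT4 most closely across the 12 libraries, among 11600 genes, were PLIN2, a lipid droplet coat protein, GPT2, a mitochondrial alanine aminotransferase, and VAT1, with Pearson's r of 0.994, 0.994 and 0.992. PLIN2 was at 44.3 ± 3.75 and 65.1 ± 2.28 CPM in PA-1, and at 17.3 ± 0.329 and 33.8 ± 3.01 CPM in SK-OV-3, with DMSO and BAY-850 in turn. Those most like SGK1 were KIF20A, a mitotic kinesin, DDX5, an RNA helicase, and HMGN2, a nucleosome-binding protein, at 0.990, 0.989 and 0.985. KIF20A was at 83.6 ± 3.05 CPM in SK-OV-3 with DMSO and at 48.1 ± 1.73 CPM with BAY-850, and at 38.8 ± 0.973 and 40.8 ± 0.707 CPM in PA-1. The libraries fall into 4 groups, so these values of r mostly compare 4 levels, and they are given as a description.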

How the data were processed

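The 12 RNA-seq libraries, 3 to a group, came from PA-1 and SK-OV-3 cells exposed for 48 h to the vehicle or to BAY-850 at 5 µM. What the authors deposited is a matrix of expected counts by gene symbol, without normalization. The submitters' processing notes name Bowtie2 2.1.0, RSEM 1.2.15 and the build hg38. RNA selection is described in 2 ways, as oligo-dT purification in the labels and as removal of ribosomal RNA in the series' design.

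Before testing, the estimates were rounded to integers. A low-count filter, edgeR's filterByExpr, was applied in each comparison, and TMM factors and the quasi-likelihood test came from edgeR 4.0.16 in R 4.3.3, without a term for the replicate number. Benjamini-Hochberg adjustment ran over all genes of a comparison. The SE of a log2 difference is the absolute difference over √F. Levels are CPM with TMM factors over all 12 libraries, and levels per kb use exon lengths from GENCODE 29, matched by symbol for 18554 genes. Column names matched the labels for all libraries.

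The members, the 8 lists and the tests were chosen with earlier results of these data known. Genes of a list were named where they passed with at least 1.5-fold, at most 4 per list and line, and others are named to complete a count. Likeness to DDIT4 and SGK1 was Pearson's r of log2 CPM, prior count 2, over genes of at least 5 CPM on average.

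Alternatives were RLE factors, library size with and without ribosomal RNA genes, no filter, at least 10 counts in every library, DESeq2 1.42.0, limma-voom (limma 3.58.1), 1 fit of all libraries, the replicate number as a block, and leaving out each library. Removal of each library's trend on GC content and the sum of both SGK3 symbols were added after seeing the data. The scripts were tested on simulated data. Library totals limit the precision of genes below 1 CPM.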

Additional observations from a re-analysis of the deposited data

Results flagged for a closer look

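The response to BAY-850 (log2 difference from DMSO) differed between the lines by the interaction test of edgeR, at an adjusted p under 0.05, for 29 of the 89 pathway genes, beside 14.5% of all genes. Of these, 17 had the higher response in SK-OV-3 and 12 the lower. With library size only the counts were 16 and 6, and with the GC trend removed 19 and 5 of 86. Values are the SK-OV-3 response minus the PA-1 response. Among the Rag GTPases and their partners the difference was 1.13 for GATSL3, 0.64 for RRAGC, 0.54 for FLCN, 0.52 for C7orf60, 0.47 for LAMTOR3, 0.44 for FNIP1 and 0.33 for LAMTOR5. The subunits of mTORC1 and mTORC2 gave -0.58 for RPTOR, -0.56 for MTOR, -0.42 for PRR5L and -0.41 for AKT1S1. The KICSTOR and GATOR genes gave -0.74 for KPTN and 0.55 for NPRL2. In the insulin pathway, IGF1R had -0.57, PIK3R1 -0.56, PIK3R2 -0.38 and INSR 0.44, and the AMPK subunit PRKAG2 had 0.53.

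Among substrates and outputs of mTORC1, EIF4EBP1 had a difference of 0.57, EIF4EBP2 of -0.45, LARP1 of -0.38, TFE3 of 0.27 and EIF4E of 0.21. Among SGK substrates and partners, TSC22D3 had 0.77, FOXO1 0.52 and NEDD4L 0.29. The paralogs gave 1.43 for RHEBL1, -1.39 for DDIT4L and -1.28 for SGK2. The SGK2 call was kept in 8 of 22 alternatives, that of GATSL3 in 16 of 21, that of RHEBL1 in 19 of 22 and that of KPTN in 20 of 22.

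SESN2 is listed by another rule, since every library with BAY-850 lay below the DMSO libraries in PA-1 and above them in SK-OV-3. In this way 13.3% of all genes lay lower in PA-1 and 18.1% higher in SK-OV-3. SESN2 was not called in PA-1. The responses differed by 0.70. SESN2 was picked with these results known, so this difference is a description, and its call among all genes is no independent test of it. Groups of 3 libraries are too small for the check for single outlying values used here. The library SK-OV-3 BAY-850 3 stood apart in symbols with a count, and values without it are given above.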

How the results depend on the processing

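In PA-1, the count of pathway genes called, 10, was 3 with library size only, 17 with no filter on low counts, 17 with DESeq2, 6 (of 86 with a GC value) with the GC trend removed, and 3 to 15 with a library left out, 3 without BAY-850 2 and 15 without BAY-850 3. Without DMSO 1 or DMSO 2 it was 4, and without BAY-850 1 it was 6. These calls were rises, except for 3 of the 15. The count of members called, 3, ran from 1 (without DMSO 2 or BAY-850 2) to 4 (without BAY-850 3, which adds RHEB). In SK-OV-3, the 36 pathway genes called became 21 without DMSO 2, 21 without DMSO 3 and up to 34 with another library left out, and the members 4 to 5. For the difference between the lines' responses, the 29 pathway genes called ran from 19 (without PA-1 DMSO 2) to 29 with a library left out, and the members from 4 to 5. DESeq2 called 35 of them, and library size only 22. Under DMSO, 9 members were called whichever library was left out. The cause of these shifts was not tested. Each fit that leaves a library out also rests on fewer libraries.

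The members' values under 17 alternatives are a description, since calls of genes picked from these comparisons add no support. DDIT4 ran from 0.97 to 1.12 in PA-1 and from 1.56 to 1.66 in SK-OV-3. In SK-OV-3, SESN2 ran from 0.55 to 0.66, TSC1 from 0.35 to 0.47, SGK1 from -1.89 to -1.78 and SGK3 from -2.01 to -0.36. In PA-1, SESN3 ran from -0.29 to -0.14 and TSC2 from 0.29 to 0.50. SGK1 in PA-1 ran from -0.16 to 0.01, and DEPTOR in PA-1 from -0.61 (without DMSO 1) to 0.06 (without DMSO 2). DESeq2 gave SGK2 no adjusted p in PA-1, and it has no value there. The SK-OV-3 minus PA-1 response of TSC2 ran from -0.52 to -0.29.

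The split of all genes called moved with scaling. In PA-1 it was 707 higher and 378 lower, and 235 and 231 with library size only (466 in all), where 1 fit of all 12 libraries called 683 and GC removal 562. In SK-OV-3 it was 1662 and 1468, and 2005 and 1033 with the GC trend removed. For the difference between responses it was 1128 and 1307, and 1062 and 773 with library size only, and 1521 and 890 with the GC trend removed. Over all alternatives the genes called in PA-1 ran from 340 (without DMSO 2) to 1674 (DESeq2), and in SK-OV-3 from 1781 (without DMSO 2) to 3902 (without BAY-850 3).

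Libraries with the same number did not pair: the correlations of their deviations from the group means were between -0.0319 and 0.0440. With the replicate block the members called were 3, 5, 9 and 4 (PA-1, SK-OV-3, under DMSO, difference between responses) and the pathway genes 10, 30, 79 and 24.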
